A study of Mus musculus with 45 samples.

Results

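The libraries described here come from wild-type mouse dendritic cells treated with rapamycin or with lipopolysaccharide (LPS). They are 10 of its 45 RNA-seq libraries, 5 labelled rapamycin and 5 labelled LPS, chosen by treatment and genotype alone. The cells were bone marrow-derived dendritic cells of C57BL/6 mice, grown with 20 ng/ml GM-CSF to day 9, treated for 8 hours and sorted as live cells with high CD11c. Each group has 5 biological replicates. Reference groups were 5 wild-type libraries in medium and 10 libraries labelled knockout (Bat3 fl/fl with a Cre driven by CD11c), 5 in medium and 5 with LPS. The labels give no dose for either agent, name no vehicle group and do not say whether rapamycin-treated cells also received LPS.

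Rapamycin binds FKBP12, and the complex inhibits mTORC1, the kinase complex that couples nutrients and growth factors to protein synthesis, glycolysis and the restraint of autophagy. LPS is a component of the outer membrane of Gram-negative bacteria and is sensed by TLR4 with CD14 and MD-2. TLR4 signals through MyD88 to NF-kB and AP-1, which drive cytokine genes, and through TRIF to IRF3 and type I interferon, which drives interferon-stimulated genes. Activated dendritic cells raise glycolysis, costimulatory molecules and peptide loading on class I molecules.

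Levels are CPM, the authors' expected counts per 1000000 counts of an effective library size. Total expected counts were 1977656 to 3821847 in the rapamycin libraries, 1956436 to 3959531 with LPS and 2876792 to 4233895 in medium. Itgax, which encodes the sorted CD11c, ranged from 89.7 to 269 CPM with rapamycin and from 50.7 to 154 with LPS, and its difference did not pass the test (adjusted p = 0.098). The class II genes Cd74 and H2-Ab1 were present in all 3 wild-type groups, while the other dendritic cell markers were low. Flt3 and Cd209a stayed at or below 1.86 CPM, Zbtb46 was at 7.5 to 14.1 with LPS and 1.62 to 4.26 with rapamycin, Xcr1 at 4.87 to 12.1 and 0.667 to 2.13, and Clec9a at 0 and 2.00 to 3.46. Some macrophage and monocyte genes were abundant too, among them Emr1 (256 to 432 CPM with rapamycin, 589 to 934 with LPS) and Csf1r (1347 to 1927 and 572 to 774). Other macrophage markers were low or absent. Vsig4 and Timd4 were at 0, Mrc1 at 6.39 to 14.8 CPM with rapamycin and 4.49 to 6.85 with LPS. Mertk was at 9.59 to 23.6 and 15.4 to 43.3, and C1qa at 11.2 to 22.5 and 13.1 to 41.0. The defining markers of T cells (Cd3e, Cd3g), B cells (Pax5), natural killer cells (Gzma, Prf1), mast cells (Cpa3, Fcer1a) and eosinophils (Epx) were at 0 in all of these libraries. Other members of those lists were not: Lck was at 6.45 to 14.2 CPM with LPS and 1.56 to 3.29 with rapamycin, Kit at 1.12 to 3.15 and 6.09 to 17.3, and Ear6 at 8.55 to 21.3 and 11.6 to 22.9. Of the neutrophil markers, Mpo and Retnlg were at 0 and Elane, Ngp and Ltf at or below 0.658 CPM, while Mmp8 was at 126 to 414 CPM with LPS and 622 to 994 with rapamycin and Cxcr2 at 60.6 to 76.3 and at most 20.5. The part of such cells in the differences was not tested. In bulk RNA, fewer cells of a type and less RNA per cell cannot be told apart.

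**Figure D1:**
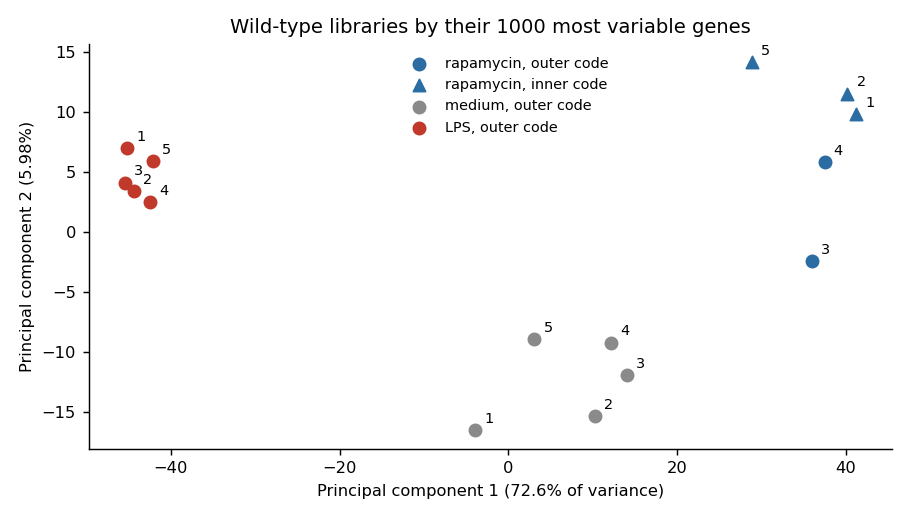
First 2 principal components of the 15 wild-type libraries over their 1000 most variable genes, with component scores on both axes, the replicate number beside each point and the symbol giving the outer or inner code. The first component, 72.6% of the variance, placed LPS between -45.4 and -42.1, medium between -3.9 and 14.1, and rapamycin between 28.9 and 41.2.

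The 3 wild-type groups were separate on the first component, with medium between rapamycin and LPS. Rapamycin replicate 5 lay nearest to medium, at 28.9. It was also the rapamycin library nearest to the LPS group for 34.8% of the genes lower with rapamycin and 32.4% of those higher, the largest share of any of the 5. Among the LPS libraries, replicate 5 was likewise the one most often nearest to the rapamycin group, for 29.3% and 25.6% of these genes. Each library carries a code of a letter and a number, read here as a position on a plate, which the labels do not state. All LPS and medium libraries of the wild type have outer codes (row A), whereas rapamycin replicates 3 and 4 have outer and replicates 1, 2 and 5 inner codes. Over all 45 libraries, 417 genes differed between outer and inner codes, 376 of them lower in outer ones. The part of position in the differences below was not tested apart from treatment beyond the values given with it.

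Rapamycin and LPS libraries differed in most of the genes measured. Of 10287 genes tested, 5794 (56.3%) passed edgeR's quasi-likelihood test at an adjusted p under 0.05, 3049 (29.6%) higher and 2745 (26.7%) lower with rapamycin. In 2174 genes (21.1%) all 5 rapamycin libraries were above all 5 LPS libraries, and in 2098 (20.4%) all were below. The median log2 fold change of all tested genes was 0.08. Large differences were more often on the side of LPS: 522 genes were more than 4-fold lower with rapamycin against 386 higher, and 93 were more than 16-fold lower against 23 higher. Without rapamycin replicate 5 the counts were 2916 higher and 2723 lower. Of the 417 genes that differed between outer and inner codes, 236 were among the 3049 higher calls and 49 among the 2745 lower calls. With only the outer-coded rapamycin libraries, 2350 of the higher calls and 2204 of the lower calls were kept. Fewer libraries and position cannot be told apart there. In that setting 19 of the higher calls changed sign and none of the lower ones did.

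The 15 genes named by rule for being lower with rapamycin than with LPS included cytokine, chemokine and enzyme genes. The rule takes only genes whose rapamycin and LPS libraries do not overlap and ranks them by fold. Separate groups and large folds of named genes are thus set by selection. The fold changes below are fitted ones, ± values are standard errors, and n is 5 libraries in each group. Il6 encodes the inflammatory cytokine interleukin-6. It was at 157, 251, 189, 225 and 218 CPM in the LPS libraries, at 10.5, 3.74, 2.07, 8.52 and 11.9 in medium, and at 2.84, 0.407, 2.96, 1.56 and 3.20 with rapamycin. Every LPS library was thus far above every medium and rapamycin library of the wild type, and the log2 fold change was -6.48 ± 0.47 (adjusted p = 1.1e-14). Ptgs2, the inducible cyclooxygenase of prostaglandin synthesis, was at 1655, 1431, 1656, 1510 and 844 CPM with LPS against 13.8, 11.4, 20.4, 5.78 and 38.6 with rapamycin. Medium spanned 33.7 to 80.3 CPM, so that rapamycin replicate 5 overlapped it, while both groups lay far below the LPS libraries. The log2 fold change was -6.30 ± 0.36 (adjusted p = 1e-17). Hdc, histidine decarboxylase, which makes histamine, was at 205, 191, 207, 235 and 145 CPM with LPS and at 0.609, 2.04, 2.30, 1.11 and 2.13 with rapamycin, a 126-fold difference. Mast cell markers Cpa3 and Fcer1a were at 0 in the same libraries, while Kit was at 6.09 to 17.3 CPM with rapamycin and 1.12 to 3.15 with LPS. Which cells held the Hdc mRNA was not tested.

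Il1a, the alarmin interleukin-1 alpha, was at 3011, 3496, 4329, 5219 and 4133 CPM with LPS and at 72.5, 95.7, 85.6, 68.2 and 90.5 with rapamycin. The fold was 49.0, and medium was again between, at 164 to 399 CPM. Cxcl10 and Cxcl11 are ligands of CXCR3 that attract T cells. Cxcl10 was at 1231, 1407, 1662, 1471 and 1538 CPM with LPS and at 18.3, 36.2, 10.9, 17.1 and 16.8 with rapamycin, 74.9-fold lower, and Cxcl11 was 56.6-fold lower. The remaining genes of this end named by the same rule were F3, tissue factor (83.0-fold), Il27, a subunit of interleukin-27 (68.9-fold), Fosl1, the AP-1 subunit Fra-1 (62.4-fold), Hamp, the iron hormone hepcidin (57.3-fold), Gbp5, an interferon-inducible GTPase (50.2-fold), U90926 (50.3-fold) and 2310014L17Rik (58.1-fold).

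Some genes of this end had almost no reads with rapamycin. Schip1, named for binding the tumour suppressor schwannomin, had 314 counts over the LPS libraries and 2 over the rapamycin libraries, a ratio of 234 with an exact 95% counting interval of 64.3 to 1941. Ccl12, a monocyte-attracting chemokine of the mouse, had 138 and 3 counts, a ratio of 68.6 (23.0 to 337). Il10, the anti-inflammatory interleukin-10, had 107 and 1, a ratio of 160 (28.0 to 6360). Csf3, the granulocyte growth factor G-CSF, had 43 counts with LPS and 0 with rapamycin, so that it was at least 21.4-fold lower when the rapamycin group is set at a floor of 3 counts. These intervals cover counting error only. The LPS libraries themselves spread widely for Il10 and Csf3. On the TPM scale, which is per length, they were at 8.67 with an SD of 10.7 and at 3.15 with an SD of 3.58.

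**Figure D2:**
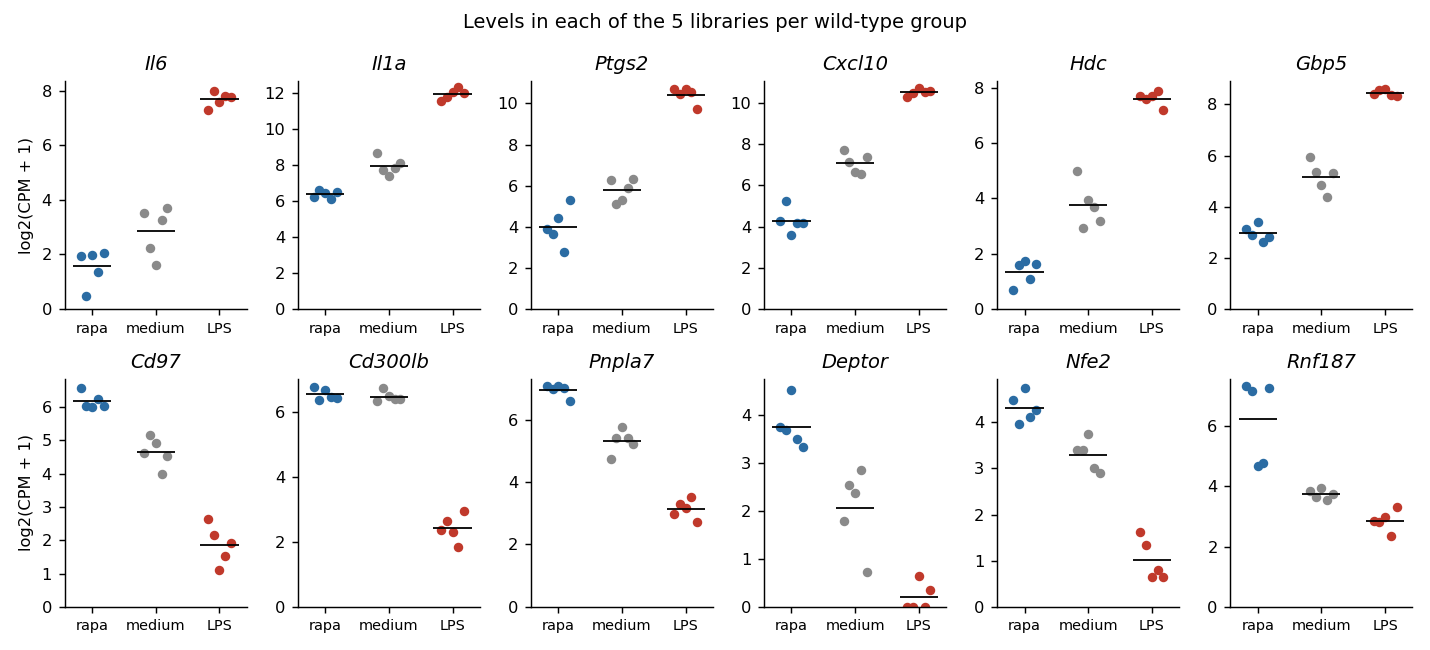
Levels, as log2(CPM + 1), of 12 genes in the 5 rapamycin, 5 medium and 5 LPS libraries of the wild type, with a point per library and a line at the group mean. The upper 6 genes rise from rapamycin to LPS and the lower 6 fall; for Rnf187 the rapamycin libraries split into 3 at 143 to 160 CPM and 2 at 24.4 and 26.5 CPM.

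Promoter letters are shown for genes at both ends, because binding sites for the factors downstream of TLR4, interferon and mTORC1 are defined as short motifs. The windows are the 250 bases before the gene start in RefSeq (GRCm38.p6), written 5′ to 3′ on the gene's strand. Capitals mark matches on either strand to a kappaB motif (GGGNNNTTCC), an interferon-stimulated response element or ISRE (GAAANNGAAA), an AP-1 motif (TGANTCA) or an E-box (CACGTG), the last being part of the element that TFEB binds.
Il6 (chr5:30012864-30013113, plus strand): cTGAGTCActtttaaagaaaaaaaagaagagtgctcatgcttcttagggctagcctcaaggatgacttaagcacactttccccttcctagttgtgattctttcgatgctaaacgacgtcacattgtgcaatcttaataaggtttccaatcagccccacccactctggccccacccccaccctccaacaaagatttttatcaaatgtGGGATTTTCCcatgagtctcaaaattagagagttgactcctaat
Cxcl10 (chr5:92348890-92349139, minus strand): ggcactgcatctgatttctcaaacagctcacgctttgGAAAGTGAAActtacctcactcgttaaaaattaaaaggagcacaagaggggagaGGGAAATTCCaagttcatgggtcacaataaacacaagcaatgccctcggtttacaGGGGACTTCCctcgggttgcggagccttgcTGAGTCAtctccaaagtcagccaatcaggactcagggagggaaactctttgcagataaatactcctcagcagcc
Gbp5 (chr3:142496684-142496933, plus strand): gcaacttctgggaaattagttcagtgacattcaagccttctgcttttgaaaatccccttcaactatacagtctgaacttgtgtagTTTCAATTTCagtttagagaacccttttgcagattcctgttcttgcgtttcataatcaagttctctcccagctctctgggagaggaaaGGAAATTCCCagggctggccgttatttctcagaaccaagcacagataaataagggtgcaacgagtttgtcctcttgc
Gbp2 (chr3:142620413-142620662, plus strand): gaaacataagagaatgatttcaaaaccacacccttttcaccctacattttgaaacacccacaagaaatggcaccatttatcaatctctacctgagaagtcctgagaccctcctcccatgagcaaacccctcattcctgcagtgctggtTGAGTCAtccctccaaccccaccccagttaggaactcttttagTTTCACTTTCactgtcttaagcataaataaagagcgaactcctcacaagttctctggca
Irgm1 (chr11:48871421-48871670, minus strand): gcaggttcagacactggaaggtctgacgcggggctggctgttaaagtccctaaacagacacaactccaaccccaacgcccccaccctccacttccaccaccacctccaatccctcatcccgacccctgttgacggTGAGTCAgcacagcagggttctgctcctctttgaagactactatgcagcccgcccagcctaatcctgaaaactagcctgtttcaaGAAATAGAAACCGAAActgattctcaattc
Pnpla7 (chr2:24975783-24976032, plus strand): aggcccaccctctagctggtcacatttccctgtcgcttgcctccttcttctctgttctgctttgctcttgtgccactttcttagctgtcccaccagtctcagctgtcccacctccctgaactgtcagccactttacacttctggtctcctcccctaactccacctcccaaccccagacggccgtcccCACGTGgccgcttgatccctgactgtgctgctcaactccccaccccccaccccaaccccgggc
Mcoln1 (chr8:3500269-3500518, plus strand): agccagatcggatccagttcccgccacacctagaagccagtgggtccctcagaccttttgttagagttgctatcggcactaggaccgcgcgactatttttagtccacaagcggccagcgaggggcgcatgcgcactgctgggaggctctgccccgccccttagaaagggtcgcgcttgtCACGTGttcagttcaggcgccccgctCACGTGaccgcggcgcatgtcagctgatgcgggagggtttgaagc
Il6 had a kappaB match starting 44 bases before the start and an AP-1 match at 249. Cxcl10 had kappaB matches at 159 and 104, an ISRE at 213 and an AP-1 match at 74. Gbp5 had an ISRE at 165 and a kappaB match at 77, Gbp2 an ISRE at 59 and an AP-1 match at 102, and Irgm1 a pair of ISRE matches at 30 and 24, which overlap, and an AP-1 match at 115. The windows of Pnpla7, a lysophospholipase gene at the rapamycin end, and of Mcoln1, a lysosomal calcium channel gene, held E-boxes, at 63 and at 71 and 45.

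Among all 32851 windows in the table, 4.65% held the kappaB motif, 2.98% the ISRE, 6.75% the AP-1 motif and 6.02% the E-box. Of the 31 genes named by rule, 23 had a window. For the 15 lower with rapamycin, 6 of 14 windows held the AP-1 motif, 3 the kappaB motif and 2 the ISRE. For the 16 higher with rapamycin, 2 of 13 windows held the AP-1 motif, 1 the kappaB motif, 1 the E-box and 0 the ISRE. Of 10 windows of the interferon-inducible GTPases 9 held the ISRE, as did 9 of 33 of the interferon-stimulated genes. The E-box was in 10 of 35 windows of the lysosome list, whose genes were called in both directions. A match describes these letters only.

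Cytokine and chemokine genes were lower with rapamycin almost throughout. For these and the lists below, the shares over all genes were 29.6% higher and 26.7% lower. Of 25 cytokine genes tested, 24 were lower and 0 higher, with a median log2 fold change of -3.87; the exception was Tgfb1 (0.62, not called). Tnf, tumour necrosis factor, was at 240, 585, 653, 365 and 214 CPM with LPS and at 8.53, 7.74, 26.7, 8.23 and 11.7 with rapamycin. The LPS libraries spread widely, yet none came near the rapamycin libraries, and the log2 fold change was -5.05 ± 0.42. Il1b was at 3889 to 6325 CPM with LPS and at 80.2 to 172 with rapamycin (-5.49 ± 0.32). Per length, on the TPM scale, Il1b was the most abundant of these cytokine mRNAs with LPS, at 5614 ± 961 TPM (SD, n = 5), followed by Il1rn, which encodes the interleukin-1 receptor antagonist, at 4754 ± 443. With rapamycin that order was turned: Il1rn was at 886 ± 195 TPM and Il1b at 167 ± 56.5. Of 20 chemokine genes, 17 were lower and 1 was higher (median -3.33). The largest falls besides Cxcl10, Cxcl11 and Ccl12 were those of Cxcl1, a neutrophil attractant (-5.21), and Ccl7, a monocyte attractant (-5.09). Ccl6 was the chemokine that was higher with rapamycin (0.91).

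All 35 interferon-stimulated genes and all 14 interferon-inducible GTPases were lower with rapamycin, with medians of -2.30 and -3.03. Rsad2, the antiviral enzyme viperin, was at 9993, 11231, 10572, 11609 and 12958 CPM with LPS, and at 319, 409, 271, 355 and 861 with rapamycin. Medium spanned 1033 to 3495 CPM, clear of both ends. The log2 fold change was -4.67 ± 0.39, and the 861 CPM of rapamycin replicate 5 stood above its group. Ifit2 (-5.21), Cmpk2 (-5.45) and Mx2 (-4.78) differed as widely, and Irf9, a subunit of the interferon-activated factor ISGF3, differed least (-0.50). Iigp1, a GTPase that attacks the vacuoles of intracellular parasites, was at 323 to 440 CPM with LPS and at 4.28 to 20.5 with rapamycin (-5.05 ± 0.33). Gbp2 was at 2334 to 2952 CPM with LPS and at 206 to 436 with rapamycin (-3.24 ± 0.23). Several of these GTPases, such as Tgtp1 and Tgtp2, have near-identical copies, and their single values are uncertain. On the mean of log2(CPM + 1), the interferon-stimulated genes were at 6.42 to 6.61 in rapamycin replicates 1 to 4, at 7.37 in replicate 5, and at 9.36 to 9.46 with LPS.

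Genes of NF-kB signalling followed the same direction: 22 of 24 were lower with rapamycin and 0 higher (median -1.50). Nfkbia encodes the inhibitor IkBa, itself an NF-kB target. It was at 1836 to 2170 CPM with LPS, 478 to 972 in medium and 259 to 353 with rapamycin, so that the 3 groups did not overlap (-2.74 ± 0.15). The feedback regulators Nfkbiz (-3.38) and Tnfaip3, the ubiquitin-editing enzyme A20 (-2.97), were lower as well. Rela, the p65 subunit, was not called (0.34). Of 22 genes of dendritic cell maturation, 19 were lower and 0 higher (median -1.84). Cd40, the receptor for T cell help, was at 568, 540, 648, 547 and 414 CPM with LPS and at 8.53, 6.92, 18.8, 14.0 and 27.2 with rapamycin (-5.16 ± 0.31). The costimulatory ligands Cd86 (-2.06) and Cd80 (-0.82) were lower, though the call of Cd80 was lost with the outer-coded rapamycin libraries alone. Class I peptide loading was lower in 16 of 16 genes (median -1.20), from Nlrc5, the transactivator of class I genes (-2.24), to Erap1, a peptide trimming enzyme (-0.55). Of 14 class II presentation genes, 6 were lower and 1 higher (median -0.50), and with outer-coded rapamycin libraries alone 1 was lower and 1 higher.

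Among LPS sensing genes, 14 of 21 were lower and 3 higher with rapamycin. Tlr1, a partner of TLR2, was at 55.0 to 90.0 CPM with LPS and at 2.40 to 5.70 with rapamycin (-4.22 ± 0.25). Tlr4 itself went the other way, at 71.9, 74.2, 54.7, 70.1 and 49.9 CPM with LPS and 140, 131, 91.8, 120 and 127 with rapamycin. These groups did not overlap, and the log2 fold change was 0.93 ± 0.22 (adjusted p = 0.00045). Of the GM-CSF receptor, STAT5 and SOCS genes, 12 of 16 were lower and 1, Pim1, higher (0.38), a call lost in several settings. Socs3, a feedback inhibitor of cytokine receptors, fell most in that list (-2.87). Stat3 was at 432 to 532 CPM with LPS and at 92.4 to 103 with rapamycin (-2.28 ± 0.14).

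Glycolysis and hypoxia-response genes were lower with rapamycin in 27 of 29 cases and higher in 2 (median -1.28). Slc2a1, the glucose transporter GLUT1, was at 968, 961, 773, 919 and 1092 CPM with LPS, and at 130, 123, 138, 114 and 130 with rapamycin. Its rapamycin libraries were also all below the 259 to 704 CPM of medium, as in 9.54% of all genes, and the log2 fold change was -2.89 ± 0.15. Pfkfb3, whose product makes the activator of phosphofructokinase, was at 816 to 1079 CPM with LPS and at 68.4 to 121 with rapamycin (-3.49 ± 0.22). Adm, adrenomedullin, a target of hypoxia-inducible factors, was at 24.0 to 63.4 and 0.814 to 2.67 CPM (-4.17 ± 0.36). Hexokinase genes Hk1, Hk2 and Hk3 differed by -1.86, -2.62 and -2.40, and Hif1a, the hypoxia-inducible transcription factor, by -2.21 ± 0.16. The glycolytic enzyme genes Gapdh (-0.75) and Pkm (-0.42) were lower as well. The 2 genes higher with rapamycin were Pfkfb4 (1.26) and Aldoa (0.29), the latter losing its call in some settings. Against medium, rapamycin lowered 26 of these 29 genes and raised 0, where 13.5% of all genes were lower and 9.68% higher; LPS raised 16 and lowered 2, where 18.8% and 21.3% of all genes were. These comparisons share the medium libraries.

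The nitric oxide, arginine and itaconate list was mixed by count, with 6 of 15 lower and 4 higher, but held large differences. Nos2, inducible nitric oxide synthase, was at 2777, 2540, 2816, 2794 and 2346 CPM with LPS, 461 to 1090 in medium, and 60.5, 70.4, 61.2, 59.6 and 135 with rapamycin. It was the gene of the list farthest below medium with rapamycin (-3.29 ± 0.19), and between the ends it differed by -5.10 ± 0.21. Irg1, which makes itaconate, was at 8200 to 9400 CPM with LPS and at 742 to 1058 with rapamycin (-3.22 ± 0.15). Srm, spermidine synthase, was low but opposite, with 136 counts over the rapamycin libraries and 3 over the LPS libraries, a ratio of 30.4 (10.2 to 149). Its fitted log2 fold change of 4.67 was 2.93 with outer-coded rapamycin libraries alone. Hmox1, the heme-degrading enzyme, was at 6208 to 7520 CPM with LPS and at 705 to 1049 with rapamycin (-3.05 ± 0.16), whereas Gpx1, glutathione peroxidase, was at 112 to 136 and 524 to 667 (2.25 ± 0.14). Their list, NRF2 and glutathione, had 8 of 20 higher and 8 lower, and 5 higher with outer-coded rapamycin libraries alone.

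**Figure D3:**
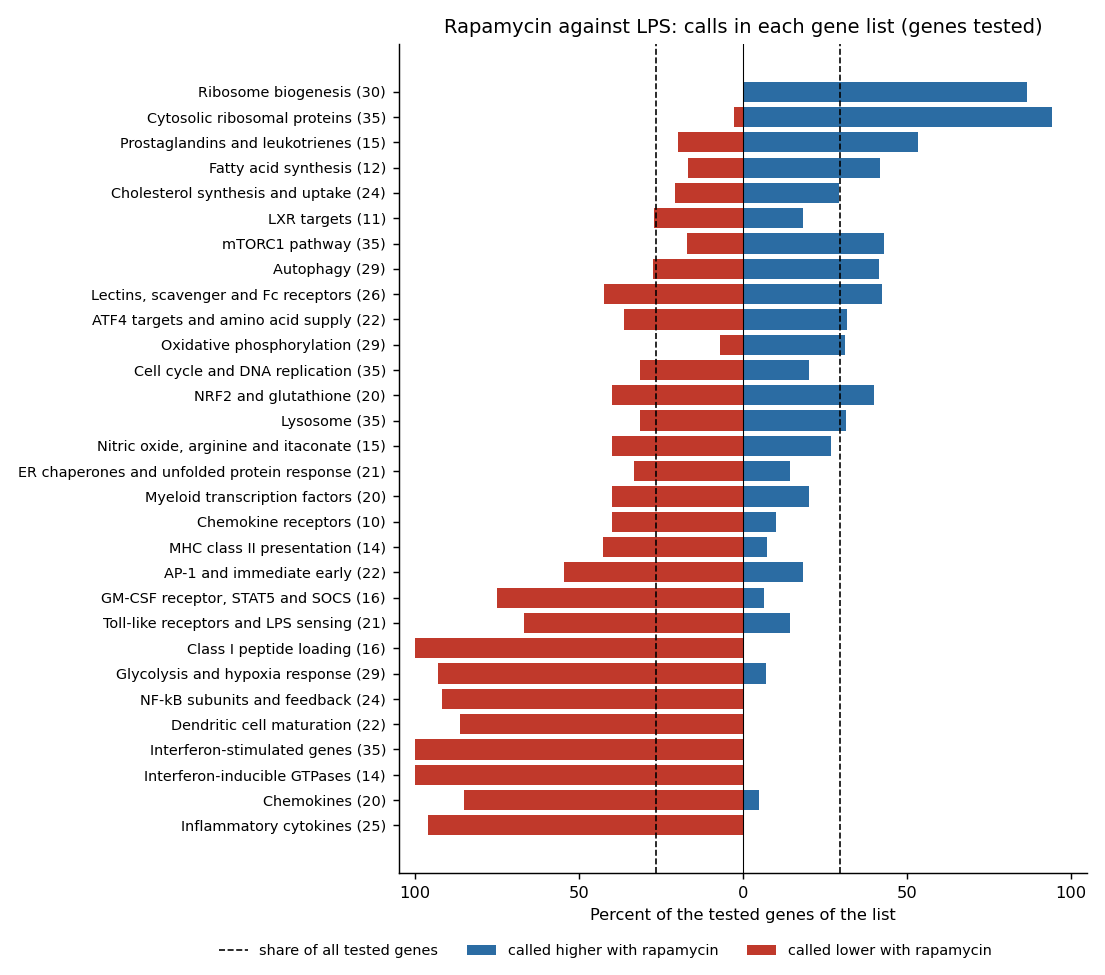
Percent of the tested genes of each list that were called higher (right) or lower (left) with rapamycin against LPS, with the number tested in brackets and dashed lines at the 29.6% and 26.7% of all genes. Interferon-stimulated genes, GTPases and class I loading reach 100% on the left, and ribosome biogenesis has no bar on that side.

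At the rapamycin end, 16 genes were named by the same rule. Deptor encodes a protein that binds and inhibits mTOR. Its level was 12.4, 11.8, 22.0, 10.2 and 9.05 CPM with rapamycin, 0.651 to 6.25 in medium, and 0 in 3 of the LPS libraries, with 0.570 and 0.280 in the other two. It had 237 counts over the rapamycin libraries and 2 over the LPS libraries, a ratio of 79.5 (exact 95% counting interval 21.8 to 660). Cd97, an adhesion receptor of leukocytes that binds CD55, was at 94.6, 64.3, 63.8, 75.4 and 64.2 CPM with rapamycin and at 5.25, 3.42, 1.14, 1.87 and 2.80 with LPS. Medium lay between, at 14.8 to 35.0 CPM, and the log2 fold change was 4.64 ± 0.35 (adjusted p = 1e-15). Pnpla7 was at 136, 127, 134, 130 and 97.2 CPM with rapamycin and at 6.82, 8.75, 7.98, 10.5 and 5.61 with LPS, 15.8-fold higher. Cd300lb, an activating receptor of myeloid cells, was at 82.2 to 110 CPM with rapamycin and at 80.4 to 106 in medium, against 2.62 to 6.73 with LPS. Its 19.7-fold difference therefore lay between medium and LPS.

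The complement receptor C5ar2 (25.2-fold), the cornified envelope gene Scel (23.7-fold), the mitochondrial ferredoxin gene Fdx1l (19.5-fold), the transcription factor Nfe2 (17.7-fold), Pald1 (17.1-fold), Traf3ip3 (14.2-fold) and 2410002F23Rik (14.0-fold) belonged to the same end. Atad3a, an ATPase of the mitochondrial inner membrane, was higher by 4.17 ± 0.56 on the log2 scale. Position moved with some values at this end. Rnf187, a ubiquitin ligase, was at 160, 143 and 153 CPM in the inner-coded rapamycin libraries and at 24.4 and 26.5 in the outer-coded ones, against 4.12 to 8.97 with LPS. Its log2 fold change was 3.94 ± 0.64 and dropped to 1.99 with position as a term and to 1.94 with outer-coded rapamycin libraries alone. Tysnd1, a peroxisomal protease, dropped from 3.88 to 3.09 with the term. Rps27 was at 83.4 to 239 CPM with rapamycin and at 3.42 to 6.09 with LPS (5.26 ± 1.04), and Pira7, a paired immunoglobulin-like receptor, was at 20.4 to 66.5 CPM with rapamycin. Both have near-identical copies, which makes their counts uncertain. Pira7 was at 0 in 4 LPS libraries and at 7.87 CPM in replicate 4; without that library its log2 fold change went from 4.78 to 10.22.

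Protein synthesis genes were higher with rapamycin than with LPS. Of 30 ribosome biogenesis genes, 26 were higher and 0 lower (median 1.66), and of 35 cytosolic ribosomal protein genes, 33 were higher and 1 lower (median 1.00). Npm1, the nucleolar protein nucleophosmin, was at 356, 409, 393, 451 and 327 CPM with rapamycin and at 119, 126, 126, 133 and 137 with LPS. Its medium libraries, at 153 to 195 CPM, lay below all rapamycin libraries (1.59 ± 0.14 against LPS, 1.12 ± 0.14 against medium). Wdr12, a factor of large-subunit assembly, was at 7.74 to 14.9 CPM with rapamycin and at 0 to 1.96 with LPS (3.56 ± 0.50). Myc, a driver of ribosome production, was at 6.50 to 11.7 CPM with rapamycin, 4.44 to 10.7 in medium and 0.280 to 2.28 with LPS. Against medium, LPS lowered 21 of the 30 biogenesis genes (median -1.17) and rapamycin raised 4 (median 0.43), where LPS lowered 21.3% and rapamycin raised 9.68% of all genes, so that the 4 are near the share of all genes. Of the ribosomal protein genes, rapamycin raised 24 (median 0.60), and LPS lowered 10 and raised 1 (median -0.39), the 10 being near the share of all genes. In the libraries labelled knockout, LPS lowered 0 and raised 2 of them (median -0.01). Rps6, the classical S6 kinase substrate, was at 568 to 769 CPM with rapamycin and at 223 to 353 with LPS (1.18 ± 0.21). Ribosomal protein genes have many processed copies, so that single values are uncertain, and the proteins themselves were not measured.

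Of 35 genes of the mTORC1 pathway, 15 were higher and 6 lower (median 0.26), against 29.6% and 26.7% of all genes. Mtor (0.01) and Rptor (-0.06), the kinase and its scaffold, were not called, whereas Rictor, the scaffold of mTORC2, was lower (-1.17). Ddit4, which encodes the mTORC1 inhibitor REDD1, was lower with rapamycin (-2.27), and Flcn, folliculin, was higher (1.16). Autophagy genes had 12 of 29 higher and 8 lower (median 0.17), and 10 and 4 with outer-coded rapamycin libraries alone. Atg7, the E1-like enzyme of LC3 conjugation, was at 83.7, 97.7, 92.8, 94.9 and 91.3 CPM with rapamycin and at 25.7, 27.0, 22.8, 24.7 and 21.0 with LPS (1.93 ± 0.14). Map1lc3b, LC3 itself, was at 411 to 451 and 207 to 248 CPM (0.96 ± 0.12). The cargo receptors Sqstm1 (-1.04) and Tax1bp1 (-1.56) were lower. Atg3, the E2-like enzyme, was at 101, 94.1 and 92.1 CPM in the inner-coded rapamycin libraries, at 38.2 and 44.7 in the outer-coded ones and at 16.8 to 21.1 with LPS. Its log2 fold change of 1.96 ± 0.30 was 1.19 with position as a term. Against medium, rapamycin raised 11 of the 29 autophagy genes and lowered 0, where 9.68% of all genes were higher and 13.5% lower. The mean of log2(CPM + 1) over this list was 5.56 to 5.79 with rapamycin and 5.31 to 5.38 in wild-type medium. Libraries labelled knockout overlapped the rapamycin range without rapamycin, at 5.51 to 5.66 in medium and 5.41 to 5.79 with LPS. The part of genotype and of position in these levels was not tested. All medium libraries of the wild type have outer codes. With outer-coded rapamycin libraries alone, genes higher than in medium fell from 996 to 486 over all genes. For this and the other lists, counts against medium were not taken in that setting, and the part of position in them was not tested.

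Lysosomal genes split evenly, 11 of 35 higher and 11 lower (median -0.02), with 7 higher when outer-coded rapamycin libraries were used alone. Both counts of 11 were near the shares of all genes. Tfeb, the transcription factor of lysosomal genes, was at 13.8, 16.7, 11.8, 17.1 and 14.1 CPM with rapamycin and at 5.77, 1.90, 2.85, 1.87 and 1.12 with LPS (2.54 ± 0.35). Mcoln1 was at 60.9 to 72.5 and 21.0 to 26.8 CPM (1.48 ± 0.16). Lamp1, a lysosomal membrane protein, was at 1597, 1371 and 1216 CPM in the inner-coded rapamycin libraries and at 426 and 599 in the outer-coded ones, against 299 to 376 with LPS. Its log2 fold change of 1.62 ± 0.31 was 0.72 with position as a term, and 0.59 and no longer called with outer-coded libraries alone. Lipa, the lysosomal acid lipase, was at 417 to 611 CPM with rapamycin, 426 to 522 in medium and 133 to 173 with LPS (1.65 ± 0.15). Lamp2, a relative of Lamp1, was lower with rapamycin (-1.10), as was the protease gene Ctsl (-1.01).

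**Figure D4:**
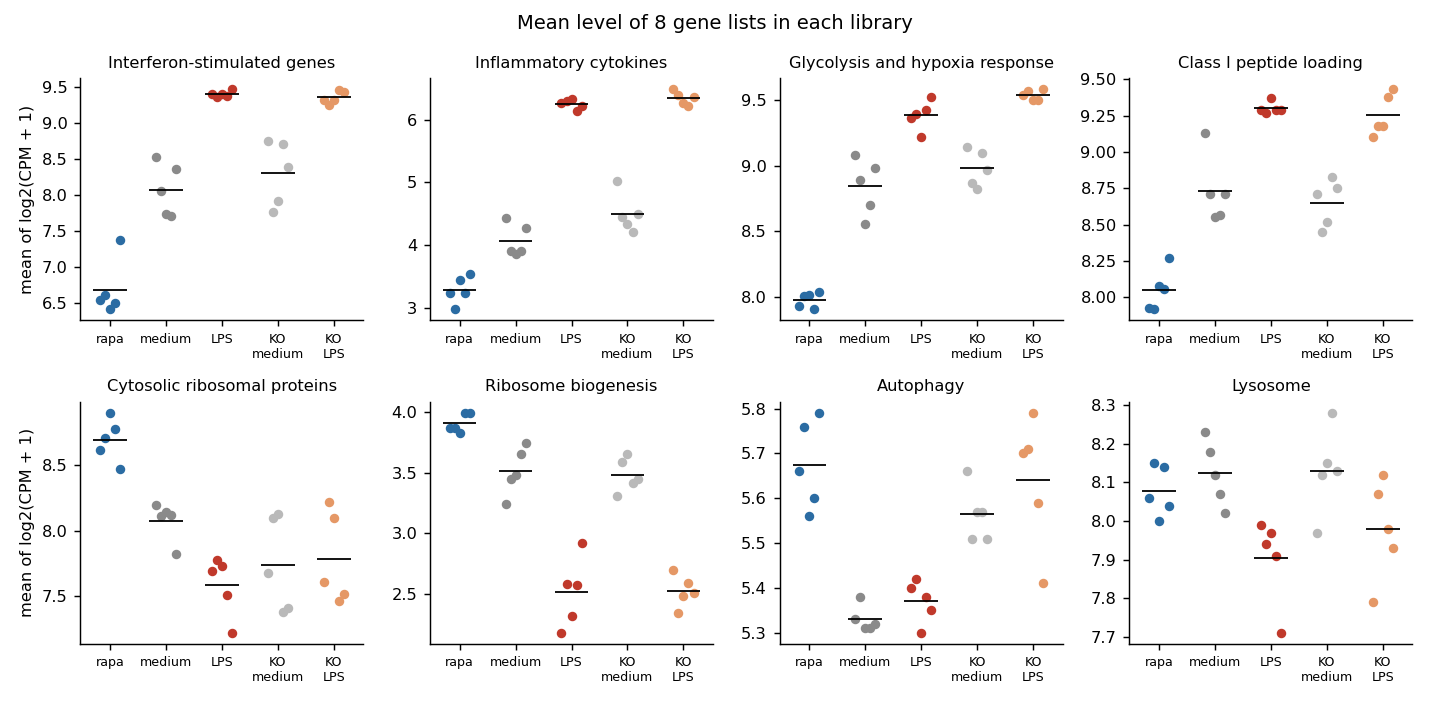
Mean of log2(CPM + 1) over the tested genes of 8 lists, with a point per library and a line at the group mean, for wild-type and knockout-labelled (KO) libraries; vertical axes do not start at 0. Interferon-stimulated genes run from 6.42 to 7.37 with rapamycin and from 9.36 to 9.46 with LPS, and ribosome biogenesis genes from 3.83 to 3.99 and from 2.18 to 2.92.

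Of 15 prostaglandin and leukotriene genes, 8 were higher with rapamycin and 3, Ptgs2, Ptges and Pla2g4a, lower. Ptgs1, the constitutive cyclooxygenase, was at 74.9, 59.0, 51.7, 69.6 and 24.8 CPM with rapamycin and at 7.87, 8.75, 11.4, 5.25 and 1.96 with LPS (3.08 ± 0.36), opposite to Ptgs2. Alox5, the 5-lipoxygenase of leukotriene synthesis, was at 5.06 to 12.5 and 0 to 2.28 CPM (3.38 ± 0.51). Fads1, a desaturase that makes arachidonic acid, was at 29.8 to 63.8 and 3.37 to 6.27 CPM (3.09 ± 0.28). In fatty acid synthesis 5 of 12 genes were higher and 2 lower, the lower ones falling to 0 with outer-coded rapamycin libraries alone. In cholesterol synthesis 7 of 24 were higher and 5 lower, the lower ones falling to 3 in that setting. The 7 were near the 29.6% of all genes that were higher, where 26.7% were lower.

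Receptors and lineage factors were mixed as lists and wide apart as single genes. Of 26 lectin, scavenger and Fc receptor genes, 11 were higher and 11 lower. Clec7a, the beta-glucan receptor dectin-1, was at 432 to 629 CPM with rapamycin and at 156 to 229 with LPS (1.56 ± 0.22), while Clec4e, the mycobacterial glycolipid receptor mincle, was at 301 to 530 and 4021 to 4708 (-3.40 ± 0.14). Fcgr1, a high-affinity IgG receptor, was lower with rapamycin (-1.99). Of 6 monocyte markers, 3 were higher, Ccr2 (2.39 ± 0.34), Fn1 (2.01 ± 0.42) and Csf1r (1.18 ± 0.15), and 2 were lower, Cd14 (-1.33 ± 0.22) and Ly6c2 (-0.65 ± 0.16). The macrophage marker list as a whole had 3 of 10 tested genes higher and 3 lower, with summed levels of 1515 to 1748 CPM with rapamycin and 2185 to 2678 with LPS, and its part in these differences was not tested. Among the higher ones, C1qc (1.53) was at 0.11 with outer-coded rapamycin libraries alone and at 1.0 without rapamycin replicate 1. It was not called in either setting. Ccnd2, cyclin D2, was at 47.2 to 68.4 CPM with rapamycin and at 458 to 899 with LPS (-3.58 ± 0.19). Of 35 cell cycle genes 11 were lower, near the 26.7% of all genes, and 7 were higher. The immediate early gene Ier2 was higher with rapamycin (3.34 ± 0.37, and 2.53 with position as a term), although 12 of 22 genes of its list were lower and 4 higher.

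In the remaining lists, calls went both ways, where 29.6% of all genes were higher and 26.7% lower. Oxidative phosphorylation had 9 of 29 genes higher, near that share, and 2 lower, with Cycs, cytochrome c, the largest difference (-1.83). ATF4 targets had 7 of 22 higher and 8 lower, LXR targets 2 of 11 and 3, chemokine receptors 1 of 10 and 4, chaperones and the unfolded protein response 3 of 21 and 7, and myeloid transcription factors 4 of 20 and 8. With position as a term, 2 myeloid factors were called higher.

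Medium was then placed between the ends. Against medium, rapamycin changed 2388 genes (23.2%), 996 higher and 1392 lower, and LPS changed 4123 (40.1%), 1932 higher and 2191 lower; both use the same medium libraries. The libraries did not overlap in 7.15% of all genes higher and 9.54% lower with rapamycin, and in 13% higher and 13.5% lower with LPS. Of the 3049 genes higher with rapamycin than with LPS, 2395 (78.6%) had their medium estimate between the ends. In 297 (9.74%) both steps passed the test in opposite directions, in 1511 only the LPS step passed, in 560 only the rapamycin step, and in 664 neither. Of the 2745 genes lower with rapamycin, 2325 (84.7%) had medium between, both steps passed in 726 (26.4%), only the LPS step in 1004, only the rapamycin step in 453 and neither in 545. Another 17 genes in each direction moved the same way from medium in both treatments and still differed between them. The genes higher and lower with rapamycin were chosen for a difference between the ends. That choice by itself favours a medium estimate between them, and no such share was taken over all genes. Passing in one step and not in the other does not show that the steps differ in size. Of the 35 interferon-stimulated genes LPS raised 35 and rapamycin lowered 34, and all 14 interferon-inducible GTPases moved away from medium on both sides.

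The LPS step was also measured in libraries that the main comparison does not use. In the libraries labelled knockout, 3618 genes (35.2%) differed between LPS and medium, 1718 (16.7%) higher and 1900 (18.5%) lower. These counts, and those below, leave out the pairing of these libraries by replicate number. With that number as a block, 1834 were higher and 1708 lower. Bag6, the gene for Bat3, was at 5.85 to 13.7 CPM in those in medium and 3.30 to 14.9 in those with LPS. These ranges reached lower than the 11.8 to 16.8 CPM of the wild-type medium and LPS libraries but overlapped them. The level of Bag6 thus does not set every library apart by label, and its difference between the labels was not tested here. The exon deleted is not given in the sources used here. Of the 3049 genes higher with rapamycin than with LPS in the wild type, 1441 (47.3%) were lower with LPS in these libraries and 12 (0.394%) were higher. Of the 2745 lower with rapamycin, 1499 (54.6%) were higher with LPS and 20 (0.729%) lower. For the 31 named genes the LPS step had the same sign in 30, and passed with it in 27. Rps27 was the exception, at -4.66 ± 1.04 in the wild type and 1.19 ± 0.76 in the knockout-labelled libraries. The difference of the steps between genotypes passed edgeR's test for 0 of the 31 genes (smallest adjusted p = 0.16), with 6 at an unadjusted p under 0.05, and for 1 of all 10287. This test also left out the pairing, and it was not run with it.

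**Figure D5:**
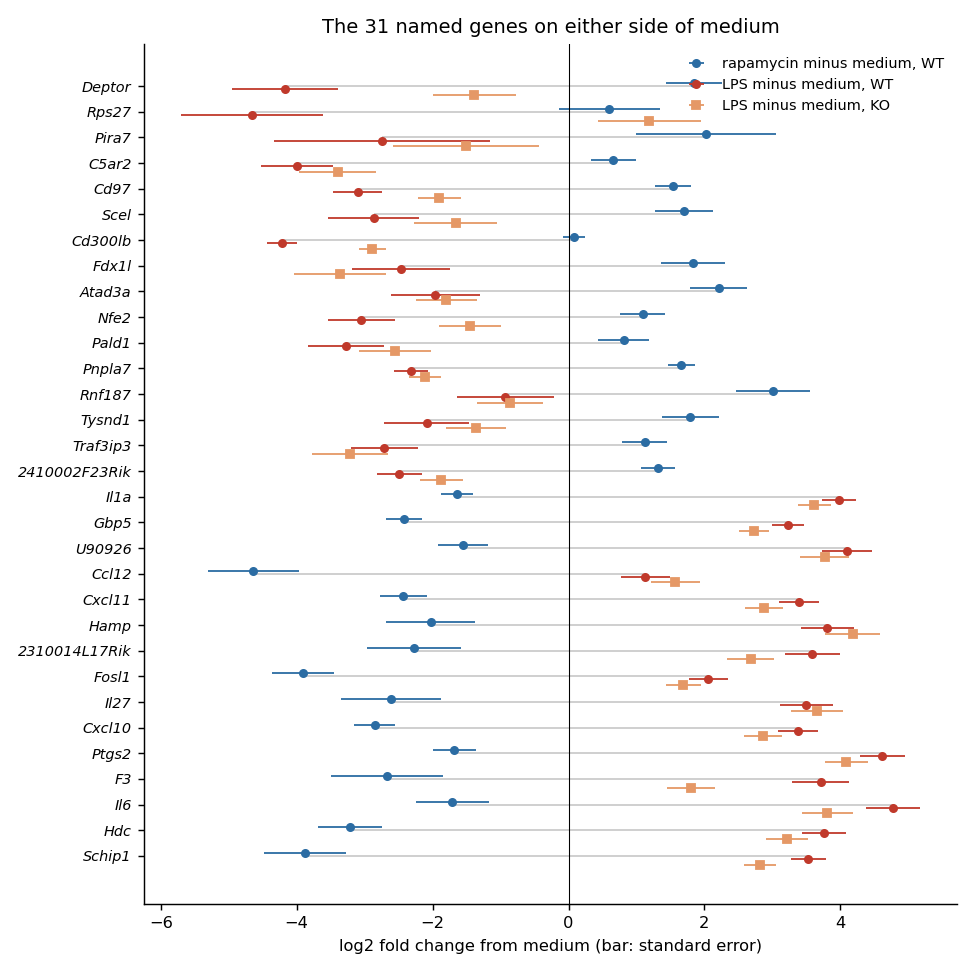
Log2 fold changes from medium, with standard errors, of the 31 named genes for rapamycin and LPS in the wild type and for LPS in the knockout-labelled (KO) libraries, ordered by the difference between rapamycin and LPS. Rapamycin and LPS points lie on opposite sides of 0 for every gene drawn, including those in which a step did not pass the test, such as Cd300lb with rapamycin (0.08). For the 20 genes named for opposite steps from medium, the naming rule itself sets this pattern. The others were named for a wide span between rapamycin and LPS, which favours it.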

How the data were processed

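RNA-seq libraries of sorted dendritic cells were made from 1 µg of total RNA with a TruSeq kit, per the labels' protocols. Expected counts and TPM values per gene were deposited by the authors, as estimated by RSEM per the file headers and the submitters' processing notes, which also name bcl2fastq; the aligner, genome build and strand setting are not stated there. Each file lists 23420 genes, and 9.09% of the expected counts were not whole numbers (tolerance 1e-06). They were rounded, scaled by TMM over genes passing filterByExpr, and tested with edgeR 4.0.16 (quasi-likelihood F test, robust) in R 4.3.3, with the 9 group means of all 45 libraries in 1 fit, two-sided, Benjamini-Hochberg adjusted over 10287 genes and called at 0.05. The procedure was tested on simulated counts with 67 genes changed 1.5-fold, 67 changed 2-fold and 66 changed 4-fold. It called 23.9%, 59.7% and 95.5% of them, and 5 unchanged genes. Many differences of 2-fold or less can therefore be missed. Far fewer genes changed there than here, so scaling under a wide shift was not tested. TPM, scaled by the authors' RSEM run to a fixed sum, served only to compare levels between genes. Depth was 1509219 to 4737736 expected counts per library, so genes below a few CPM rest on few reads.

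Genes were named by rule: called, at least 10 CPM in the higher group, no overlap of libraries, then the 15 largest differences in each direction, and the 10 largest in each direction among genes called on opposite sides of medium in all 3 wild-type comparisons. These 31 genes, and members of 30 gene lists and 12 marker lists, are described. Members, lists and rule were chosen with earlier results of these data known, so lists carry no test. The genotype difference of the LPS steps was added later. Alternatives were DESeq2 1.42.0, RLE size factors, no filter, 2 groups only, the replicate number as a block, plate position, and each library left out. Deviations from the group means of same-numbered LPS and medium libraries labelled knockout correlated at 0.297 to 0.604, so that their numbers pair them. The main fit and the genotype difference did not use this pairing. Gene starts came from RefSeq (GRCm38.p6). Single values of a few list members are not reported here.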

Additional observations from a re-analysis of the deposited data

Results flagged for a closer look

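The genes named by rule, and others whose values were given by library, gave 136 groups of 5 libraries. Each group was examined for a library far from the other 4 (Dixon's test at 95%), and 8 were found (5.9%, where chance gives about 1 in 20). Of these, 6 were rapamycin libraries. Most genes named by rule were chosen for groups without overlap, and the effect of that choice on the share was not tested. Deptor was at 22.0 CPM in rapamycin replicate 3, where the others were at 9.05 to 12.4. Tnf was high in the same library, at 26.7 CPM against 7.74 to 11.7. Rapamycin replicate 5 accounted for another 4: Rsad2 at 861 CPM against 271 to 409, Pfkfb3 at 121 against 68.4 to 76.8, Nos2 at 135 against 59.6 to 70.4, and Pnpla7 at 97.2 against 127 to 136. In each of these, replicate 5 was the rapamycin library nearest to the LPS group. With LPS, Pira7 was at 7.87 CPM in replicate 4 and at 0 in the others, and Ptgs2 was at 844 CPM in replicate 5 against 1431 to 1656.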

How the results depend on the processing

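Rapamycin against medium was the comparison that moved: with only the outer-coded rapamycin libraries (2 of 5), 486 genes were higher against 996 and 815 lower against 1392. Smaller groups and position cannot be told apart there. The other counts stayed within 1.5 times. For rapamycin against LPS, the settings other than leaving out a library gave 2445 to 3086 higher and 2334 to 2800 lower genes, and leaving out each library gave 2872 to 2989 and 2588 to 2723. Leaving out libraries gave 805 to 958 higher and 1185 to 1357 lower for rapamycin against medium, 1766 to 1907 and 1938 to 2090 for LPS against medium, and 1496 to 1741 and 1654 to 1878 for LPS in the knockout-labelled libraries. With the replicate number as a block, 2776 genes were higher and 2748 lower with rapamycin than with LPS. Same-numbered deviations correlated at 0.174, 0.162, 0.257, -0.0796 and 0.319. Because replicate 4 was not over 0.1, the numbers were not taken as pairs, although 4 of 5 rapamycin libraries correlated best with the LPS library of their own number. In the knockout-labelled libraries the block gave 1834 higher and 1708 lower. Of 504 list genes called, 414 kept their call in every setting that gave them a value (15 to 17), 90 lost it in at least 1, and 0 changed sign. The median of all genes moved by less than 0.1 (log2) under other scalings.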
